A study of Mus musculus with 6 samples.

Results

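The Reg family are small secreted proteins built around a C-type lectin domain, and 7 mouse members were measured here: Reg3b, Reg3g, Reg3a, Reg3d, Reg1, Reg2 and Reg4. They were found by gene symbol among the gene probes of the arrays, where all 7 were present with 8 probes, out of 37325 named genes and 56605 gene probes. The family was selected on its difference between the groups of these same 6 arrays, so that difference is given below as a description and supports nothing by itself. RNA came from colon tissue with tumors of male C57BL/6 mice bought at 6-8 weeks of age. Tumors arose from colitis in all mice, the controls included: AOM (10 μg/g), a mutagen that targets the colon, was followed by drinking water with 2% DSS, an agent that injures the colon lining. The 3 treated mice received RG@M-γ-CD by mouth for 21 days (30 μg/g of complex, equal to 10 μg/g RG), and colons were taken after 14 more days of observation. RG is regorafenib, a kinase inhibitor, and M-γ-CD is a mannose-modified γ-cyclodextrin that carries it. The 3 control mice received PBS. Free RG and the empty carrier were not analysed here, so the drug, the carrier and their combination cannot be told apart. The tissue held tumor together with neighboring colon wall.

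In the intestine, Reg3b and Reg3g are made by epithelial cells and secreted into the lumen, where Reg3g binds the cell wall of Gram-positive bacteria and Reg3b acts on Gram-negative bacteria as well. Both are induced when the epithelium senses microbes or injury, through MyD88 and through IL-22, which acts on STAT3 in epithelial cells. Reg1 and Reg2 are known best as secreted products of pancreatic acinar cells, while Reg4 marks secretory and enteroendocrine cells of the colon.

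Reg3b and Reg3g were the members that stood apart between the groups, so the 250 bases before their transcription start sites are shown. They come from RefSeq on GRCm38, chr6:78370635-78370884 on the plus strand for Reg3b and chr6:78468875-78469124 on the minus strand for Reg3g, and read 5′ to 3′ towards the gene. Capitals mark matches to 4 motifs searched on both strands: TTCNNNGAA, which STAT factors bind, TGANTCA for AP-1, TATAAA for the TATA box and TTTATG for Cdx factors of intestinal epithelium.
Reg3b: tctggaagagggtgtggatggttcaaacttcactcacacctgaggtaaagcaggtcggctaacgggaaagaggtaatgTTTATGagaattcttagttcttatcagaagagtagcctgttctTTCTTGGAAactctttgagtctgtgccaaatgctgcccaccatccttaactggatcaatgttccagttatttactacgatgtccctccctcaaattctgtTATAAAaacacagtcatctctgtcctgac
Reg3g: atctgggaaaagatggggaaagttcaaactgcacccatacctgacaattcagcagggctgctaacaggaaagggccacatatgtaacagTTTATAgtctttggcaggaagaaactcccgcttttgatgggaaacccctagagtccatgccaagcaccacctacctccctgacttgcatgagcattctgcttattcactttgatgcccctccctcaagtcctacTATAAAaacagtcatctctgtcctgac

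Aligned end to end, these windows were identical at 68.4% of alignment columns, the highest of the 21 pairs of Reg promoters, while the other 20 pairs lay between 44.9% and 56.9%. The Reg3b window held a match to the STAT motif from 129 to 121 bases before the start, a Cdx match from 172 to 167 bases before it, and a TATA box at 29 to 24. The Reg3g window held a TATA box at 27 to 22, a second match to the same motif on the opposite strand at 161 to 156, and no match to the other 3 motifs. Reg1 and Reg2 each had a TATA box at 30 to 25, and Reg1 an AP-1 match at 117 to 111. Reg3d had a STAT match at 238 to 230. Promoters of all 7 members were in the table, and over the 250 bases before the start of all 32851 promoters it holds, 7.02% held the STAT motif, 6.75% AP-1, 12.4% the TATA box and 10.8% the Cdx motif. Matches are letters in a window and say nothing of binding.

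**Figure D1:**
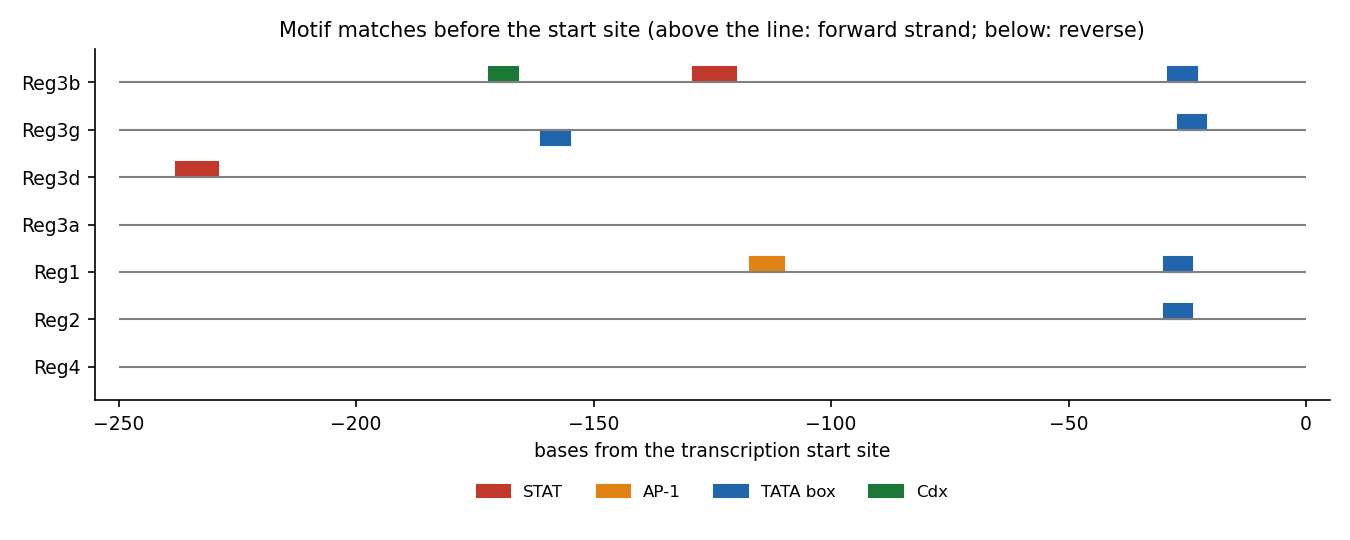
Matches to 4 motifs in the 250 bases before the start of each Reg gene. The x axis gives bases from the start site, colors give the motif, and boxes above or below a line give the strand. Reg3b carried 3 matches and Reg3g 2, both with a TATA box close to the start, and Reg3a and Reg4 carried none.

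Each level below is the log2 intensity of a spot minus the 75th percentile of its array, so only differences of one probe between arrays can be read, not differences between probes. All 6 arrays lay on 1 slide and were scanned together, with the 3 treated arrays and PBS replicate 1 in one row and PBS replicates 2 and 3 in the other. Between 49.6% and 55.2% of gene probes were well above background per array, and 0 gene spots were saturated. A clustered heat map of the study places RG@M-γ-CD replicate 1 beside PBS replicates 2 and 3, and PBS replicate 1 beside RG@M-γ-CD replicates 2 and 3, against the sample labels. Across all genes tested, which are not independent replicates, RG@M-γ-CD replicate 1 correlated with PBS replicates 2 and 3 at r = 0.985 and 0.987 and with RG@M-γ-CD replicates 2 and 3 at r = 0.941 and 0.973. PBS replicate 1 did not show the like: it correlated with PBS replicates 2 and 3 at r = 0.981 and 0.983, and with RG@M-γ-CD replicates 2 and 3 at r = 0.972 and 0.977. The labels were kept, and results are also given without those 2 arrays. Epithelium was present on every array: the mean level of 12 general epithelial markers lay between 5.27 and 5.59 in the treated mice and between 5.15 and 5.62 in the controls. Of 17 colonocyte markers 16 could be tested, whereas 8 of 17 markers of small intestine enterocytes, among them Sis, Lct, Alpi and Fabp1, were not well above background on any array. The other 9, among them Apob and Onecut2, could be tested.

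Reg3b was lower on every treated array than on every control array. Its spot, a 60-base probe at chr6:78323323-78323382 (mm9, middle 30 bases gaaaaagcattttctatctacagtccacat), read 928, 53.1 and 2916 intensity units in RG@M-γ-CD replicates 1, 2 and 3, and 10105, 22964 and 16710 in PBS replicates 1, 2 and 3. On the log2 scale these were 0.79, -2.87 and 2.84 against 4.51, 6.16 and 5.22. The highest treated mouse, replicate 3, stayed 3.20-fold below the lowest control mouse, replicate 1. The treated mice also differed widely among themselves, by 52.3-fold from the lowest to the highest, against 3.13-fold among the controls. Against the control mean, replicate 2 was 289-fold lower, replicate 1 was 22.8-fold lower and replicate 3 was 5.51-fold lower. The mean level was 0.25 ± 2.89 (SD, n = 3) in the treated mice and 5.30 ± 0.83 in the controls. The log2 difference was -5.05 (SE 1.37), or 33.1-fold lower. Every SE here is limma's moderated standard error, which draws a gene's variance towards that of all genes, so it does not follow from the SDs. No gene among the 19087 tested had a more negative difference. The family was selected on this difference, so the rank restates that choice. Genes that the filter on dim probes left out are not ranked.

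Reg3g, the closest relative of Reg3b among the promoters, followed the same order over the arrays with a smaller spread. Its probe at chr6:78416420-78416479 (mm9, minus strand, middle 30 bases atcatgggttgatatatacctagccacaag) read 2380, 864 and 3869 intensity units in RG@M-γ-CD replicates 1, 2 and 3, and 16301, 22426 and 21426 in PBS replicates 1, 2 and 3. Its levels were 2.15, 1.15 and 3.24 in the treated mice and 5.20, 6.13 and 5.58 in the controls. Again replicate 2 was the lowest treated mouse and replicate 3 the highest, and the groups were parted by 3.89-fold. The mean level was 2.18 ± 1.05 (SD, n = 3) against 5.64 ± 0.46, a log2 difference of -3.46 (SE 0.54), or 10.98-fold lower. Among the genes tested, Reg3b, Prss2 and Ctrc alone had more negative differences, a rank that again restates the selection. The pancreatic enzymes Prss2 and Ctrc were not well above background on any treated array. In bulk tissue, fewer cells that make a transcript and less transcript per cell cannot be told apart.

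Over the 6 arrays the levels of Reg3b and Reg3g were correlated at Pearson r = 0.967, given as a description over arrays that also share their group difference. Over all pairs of Reg probes set against each other without gaps, at most 27 bases were identical. Probes were not set against the transcripts of other members, so whether a spot also reads a related transcript was not tested. For neither gene did limma's moderated test pass the Benjamini-Hochberg threshold of 0.05 over all genes, with an adjusted p of 1.0 for both. At that threshold 0 of 19087 genes (0%) were called, 419 genes had an unadjusted p below 0.05, and the smallest adjusted p was 0.817. At the thresholds of the study's methods, a fold change of 2 and an unadjusted p of 0.05, Reg3b and Reg3g were the 2 members called lower of 5 tested, where 74 genes (0.388%) were called lower over the whole array. That number depends on the test and the arrays: 33 genes were lower with the methods' own test, 235 with the row on the slide as a block and 425 once RG@M-γ-CD replicate 1 was left out. The same 2 of 5 members had groups that did not overlap with lower treated levels, where 2.19% of all genes did, and 0 of 5 did so with higher treated levels, where 2.38% of all genes did. Since the family was selected on this contrast, nothing is read from these shares. With 3 arrays against 3, an exact two-sided permutation test of one gene cannot go below p = 0.10, and p-values measure the spread between these 6 samples only.

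**Figure D2:**
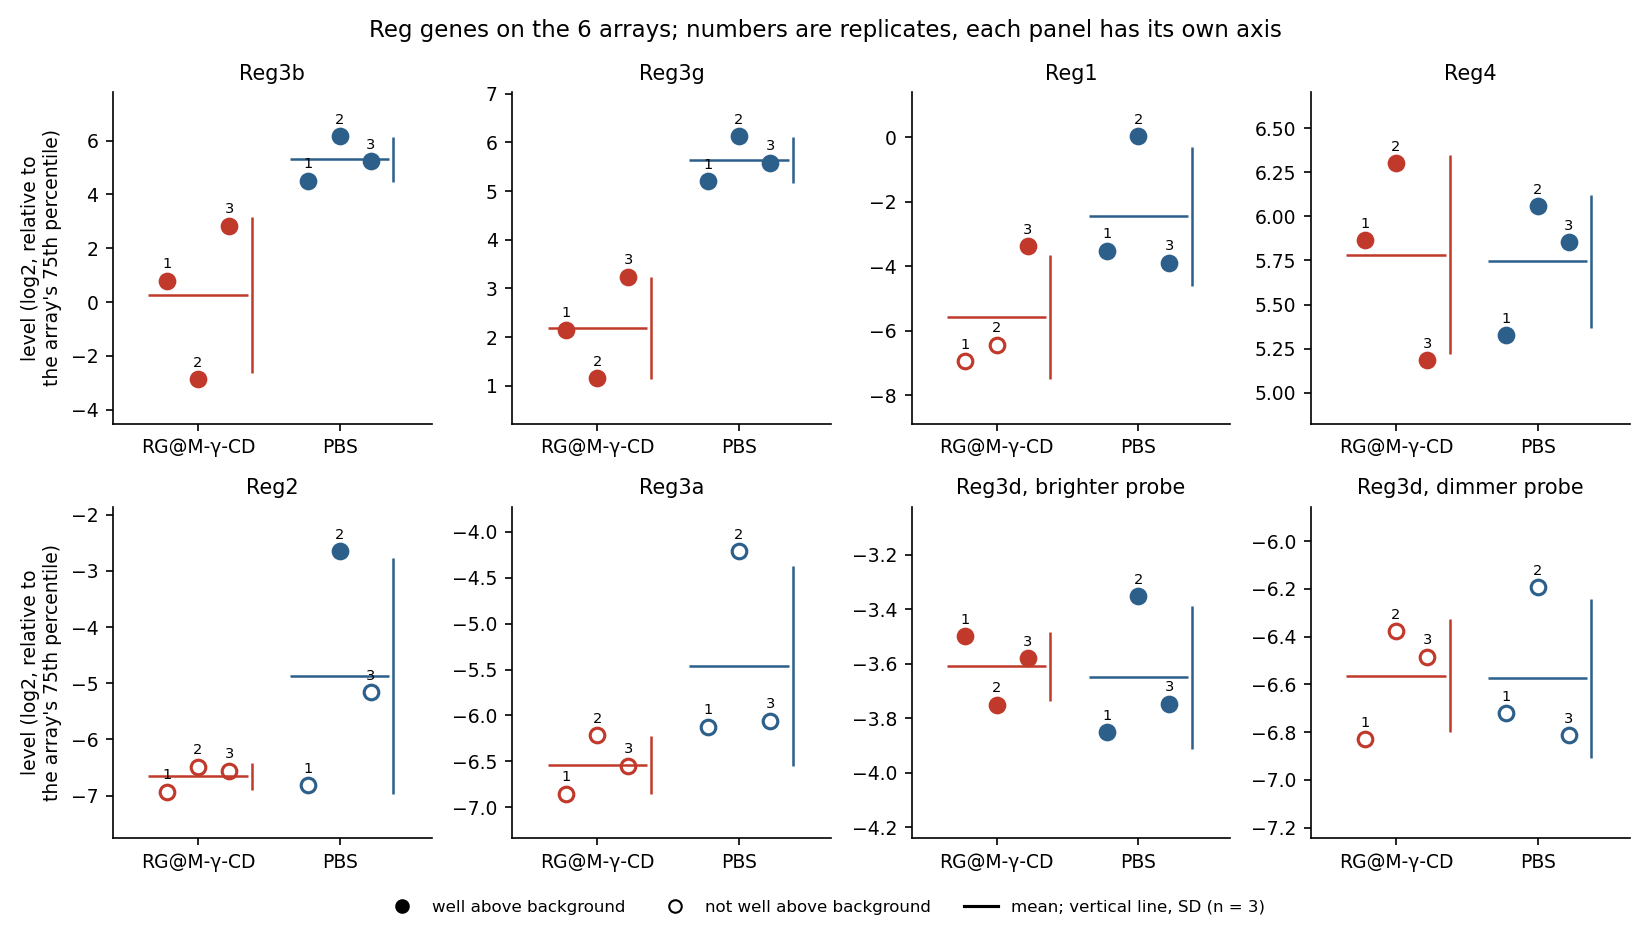
Levels of the 8 Reg probes on each array (y axis, log2 relative to the array's 75th percentile, with its own range in every panel), by group on the x axis, with replicate numbers beside the points, the group mean as a horizontal line and the SD as a vertical line. Open circles are spots not well above background, whose order carries no information. Reg3b and Reg3g are the panels in which all spots are filled and the groups do not overlap, while Reg4 and the brighter Reg3d probe overlap fully.

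Reg1, the pancreatic stone protein, was dim. Its levels were -6.93, -6.43 and -3.38 in RG@M-γ-CD replicates 1, 2 and 3, of which replicate 3 alone was well above background, and -3.51, 0.04 and -3.88 in PBS replicates 1, 2 and 3, all well above background. The treated mouse that could be measured thus lay among the control mice, and PBS replicate 2 stood above all others. Reg1 entered the test through the control arrays alone. The log2 difference was -3.13 (SE 1.32, limma adjusted p of 1.0), and it rests on 2 treated values that were not well above background and on 1 control mouse. It was -1.89 without PBS replicate 2 and -1.19 with normexp background correction.

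Reg2, a second pancreatic member, was well above background in PBS replicate 2 alone, at a level of -2.65, and read between -6.93 and -5.16 on the other 5 arrays. Reg3a cleared background on none of the arrays and read between -6.85 and -4.21, so its values have no order. No fold change is given for either gene, and neither was tested. PBS replicate 2 was therefore the highest array for Reg1 and the single array that measured Reg2.

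The same array stood apart for many, but not all, enzymes of pancreatic acinar cells. In a list of 34 exocrine pancreas genes, PBS replicate 2 was the highest array for 19 of the 31 that were well above background on any array. RG@M-γ-CD replicate 1 was the highest for 4, among them Pnliprp1 and Pnliprp2, and replicate 2 for 6, among them Cela1. PBS replicates 1 and 3 were the highest for 1 each, Ctrl in replicate 1. The amylase Amy2a5 was 24.7-fold higher there than on the next array, the elastase Cela3b 24.0-fold, the chymotrypsin Ctrc 30.1-fold and the trypsin Prss2 6.83-fold. Amy2a5 and Cela3b were well above background in PBS replicates 2 and 3 alone. Of the 17 list genes tested, 16 had a negative difference, with a median of -0.60, against a median of -0.01 over all genes tested, 52.8% of which were negative. Groups did not overlap for Prss2, Ctrc and Ctrb1, where 2.19% of all genes were lower without overlap, but Prss2 and Ctrc entered the test through the control arrays alone and Ctrb1 was well above background on 2 of 3 treated arrays. The most positive was Cela1 at 0.17 and the most negative Prss2 at -4.08. Since Prss2 and Ctrc were not well above background on any treated array, the controls were at least 3.43-fold higher for Prss2 and at least 3.49-fold higher for Ctrc (limma adjusted p of 1.0 for both). The mean level of the 17 genes ranged from 0.62 to 0.94 on the treated arrays and from 1.29 to 2.73 on the control arrays. Prss2, Ctrc, Ctrb1, Ctrl, Cel and Gp2 are among the 17 and entered the test through the control arrays alone. The filter thus draws the count of negative genes, the median and these means towards lower treated levels, and nothing is read from them. The acinar transcription factor Ptf1a and the trypsin Prss1 were not well above background on any array. The part of pancreatic RNA in the Reg1 and Reg2 values was not tested. Without PBS replicate 2 the Reg3b and Reg3g differences were -4.62 and -3.21, a direction that leaving out an array could not have reversed. PBS replicate 3, where Amy2a5 and Cela3b were also well above background, remained in that comparison. The part of pancreatic RNA in the Reg3b and Reg3g values was not tested either.

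**Figure D3:**
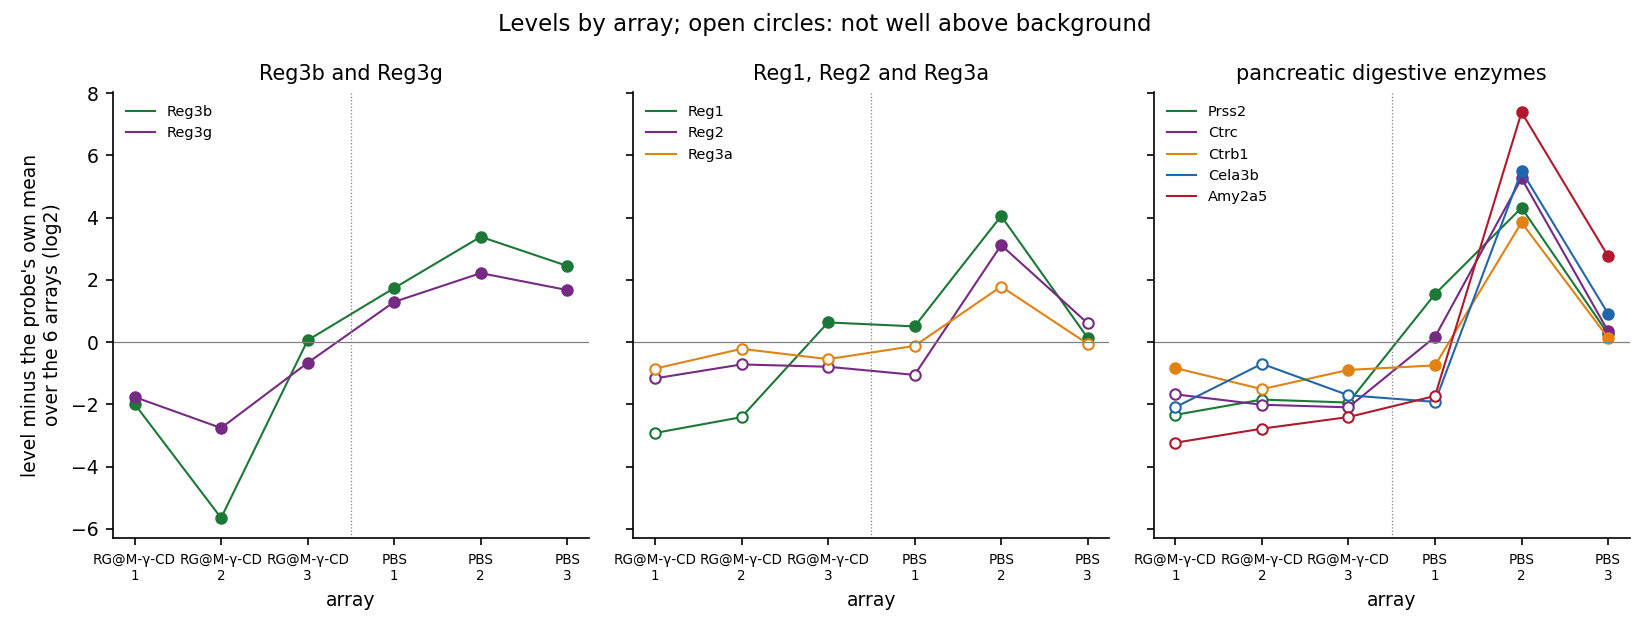
Levels by array (x axis), each as the difference from that probe's own mean over the 6 arrays (y axis, log2), with 1 line per gene and open circles for spots not well above background. Reg3b and Reg3g are low on all 3 treated arrays and high on all 3 control arrays, while Reg1 and Reg2 peak in PBS replicate 2, as do Prss2, Ctrc, Ctrb1, Cela3b and Amy2a5. The enzymes shown were picked after their values were seen, and other listed enzymes peaked on other arrays. The circles of Reg3a are all open and have no order.

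Reg4 and Reg3d showed no separation. Reg4, at 5.87, 6.30 and 5.18 in RG@M-γ-CD replicates 1, 2 and 3 and at 5.33, 6.06 and 5.85 in PBS replicates 1, 2 and 3, was well above background on every array. The lowest and the highest of all its values were treated mice. Its log2 difference was 0.04 (SE 0.34, limma adjusted p of 1.0).

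Reg3d had 2 probes, which disagreed. The brighter one, at chr6:78325868-78325927 (mm9), read -3.50, -3.75 and -3.58 in the treated mice and -3.85, -3.35 and -3.75 in the controls, well above background on all 6 arrays. It was still dim, at 28.9 to 47.5 intensity units, close to the lowest levels that count as well above background. Its log2 difference was 0.04 (SE 0.19, limma adjusted p of 1.0), with overlapping groups. The other probe lay at chr6:78326006-78326065 (mm9) and cleared background on none of the arrays, at levels between -6.83 and -6.19. Whether Reg3d was detected therefore depends on the probe.

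The Reg3b and Reg3g differences held their direction however the arrays were processed. Over 19 other ways of processing or choosing the arrays, the Reg3b difference ranged from -6.34 to -3.49 and the Reg3g difference from -3.99 to -2.94. In all 19 the groups did not overlap, but many of these settings could not have shown overlap. Leaving out arrays cannot create it. The methods' test, the blocks and the settings for dim or averaged probes used the same levels of both genes. In none of the 19, of which 18 used limma and 1 the methods' own test, did the adjusted p pass 0.05, the lowest being 0.231 for Reg3b and 0.0787 for Reg3g, both without RG@M-γ-CD replicate 1. Without RG@M-γ-CD replicate 1 and PBS replicate 1, the arrays that the heat map places in the other group, the differences were -5.71 for Reg3b, -3.66 for Reg3g and -2.98 for Reg1. Exchanging the labels of those 2 arrays, given as values with no test, left -2.57 for Reg3b and -1.42 for Reg3g, and the groups then overlapped. Within the row of the slide that held all treated arrays and PBS replicate 1, the differences were -4.26 and -3.02. Measured against the mean of the 12 epithelial markers on the same array, a scale chosen after seeing the data, they were -5.02 and -3.42.

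**Figure D4:**
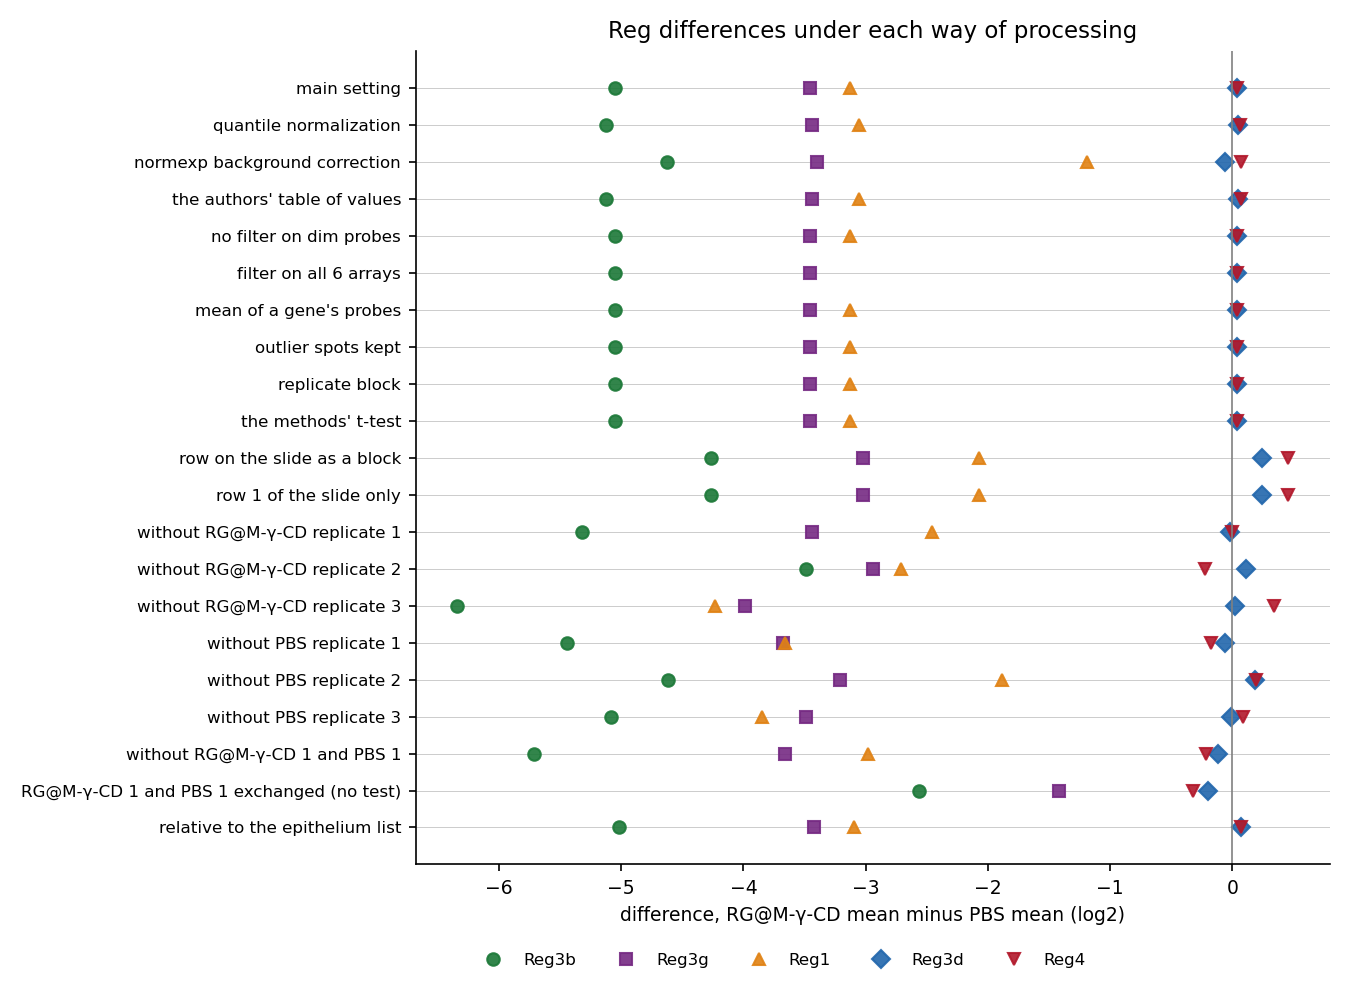
Log2 difference between the group means (x axis, RG@M-γ-CD minus PBS) of the 5 Reg genes tested, with 1 row per way of processing or choosing the arrays. Reg3b lies between -6.34 and -3.49 and Reg3g between -3.99 and -2.94 in every row but the exchange, where they are -2.57 and -1.42. Reg3d and Reg4 lie on both sides of 0.

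Signals that induce Reg3b and Reg3g in the intestine were looked at next, from a list of 24 cytokines and receptors. The cytokines closest to Reg3 induction were too dim: IL-22 (Il22) was well above background in PBS replicate 1 alone, Il17a on 3 arrays, and Il17f, Il17c, Il12b and Il23r on none. Of 15 list genes tested, 8 were negative and 7 positive, with a median of -0.10, and 0 passed the adjusted threshold. Osm, a cytokine of the IL-6 family that signals through STAT3, read -0.91, -2.08 and -2.32 in the treated mice and -0.09, -0.82 and -0.67 in the controls. Its groups did not overlap, and its log2 difference of -1.24 (SE 0.41) was the most negative of the list. The groups of its receptor Osmr did not overlap either, at 0.76, 0.84 and 0.84 against 1.35, 1.08 and 1.34, a difference of -0.44 (SE 0.15). Osm and Osmr were the 2 of 15 genes tested that were lower without overlap, where 2.19% of all genes were. Il6 had the most positive difference, 0.88 (SE 0.61), with overlapping groups.

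In the list of STAT3 and MyD88 signaling, 20 of 21 genes were tested, 17 were negative and 3 positive, with a median of -0.16 and 0 past the adjusted threshold. Socs1, a feedback inhibitor of JAK and STAT signaling, was -0.19, -0.50 and -0.45 in the treated mice and 0.97, -0.11 and 0.48 in the controls, a difference of -0.83 (SE 0.29) and the most negative. Myd88, the adapter of most Toll-like receptors, was 2.23, 2.27 and 2.26 against 2.43, 2.47 and 2.46, a difference of -0.20 (SE 0.13). In these 2 of 20 genes the groups did not overlap, with lower treated levels, where 2.19% of all genes did so. Tlr5, the flagellin receptor, was the most positive at 0.28, with overlapping groups.

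Other antimicrobial proteins of the gut stood mostly on the side of Reg3b and Reg3g. Of 29 listed genes 27 were tested, 26 were negative and 1 positive, with a median of -0.82 against -0.01 over all genes tested, and 0 passed the adjusted threshold. Among the negative genes, Retnla was well above background on 1 of 3 treated arrays and entered the test through the control arrays alone. Groups did not overlap for 6 genes lower in the treated mice and 1 higher, where 2.19% and 2.38% of all genes did so. Nos2, the inducible nitric oxide synthase, read 1.60, 0.45 and 0.23 in the treated mice and 3.38, 2.15 and 3.25 in the controls, 4.48-fold lower. Lcn2, which takes iron-binding siderophores from bacteria, read 4.57, 1.70 and 3.20 against 4.63, 4.86 and 5.64, 3.69-fold lower, with replicate 1 barely below the lowest control. Saa3, a serum amyloid A protein, was 3.40-fold lower. The others lower without overlap were the epithelial oxidases Duox2 (-0.93) and Nox1 (-0.68) and the fucosyltransferase Fut2 (-0.66) as log2 differences. Camp, the cathelicidin, was the 1 gene higher without overlap, by 0.54. It was well above background on 5 of 6 arrays and entered the test through the treated arrays alone. S100a8, a calprotectin subunit of neutrophils, had the most negative difference, -2.52 (SE 1.40), with overlapping groups, and RG@M-γ-CD replicate 1 was the second highest of the 6 arrays for it. RG@M-γ-CD replicate 1 thus lay among the controls for S100a8, but 22.8-fold below their mean for Reg3b, which is not in this list. In a list of 16 other secreted lectins, 13 were tested, 8 negative and 5 positive. The median was -0.06, from Itln1, also in the antimicrobial list, at -1.35 to Colec11 at 0.62. Groups did not overlap for 0 of the 13, where 2.19% of all genes were lower and 2.38% higher without overlap.

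**Figure D5:**
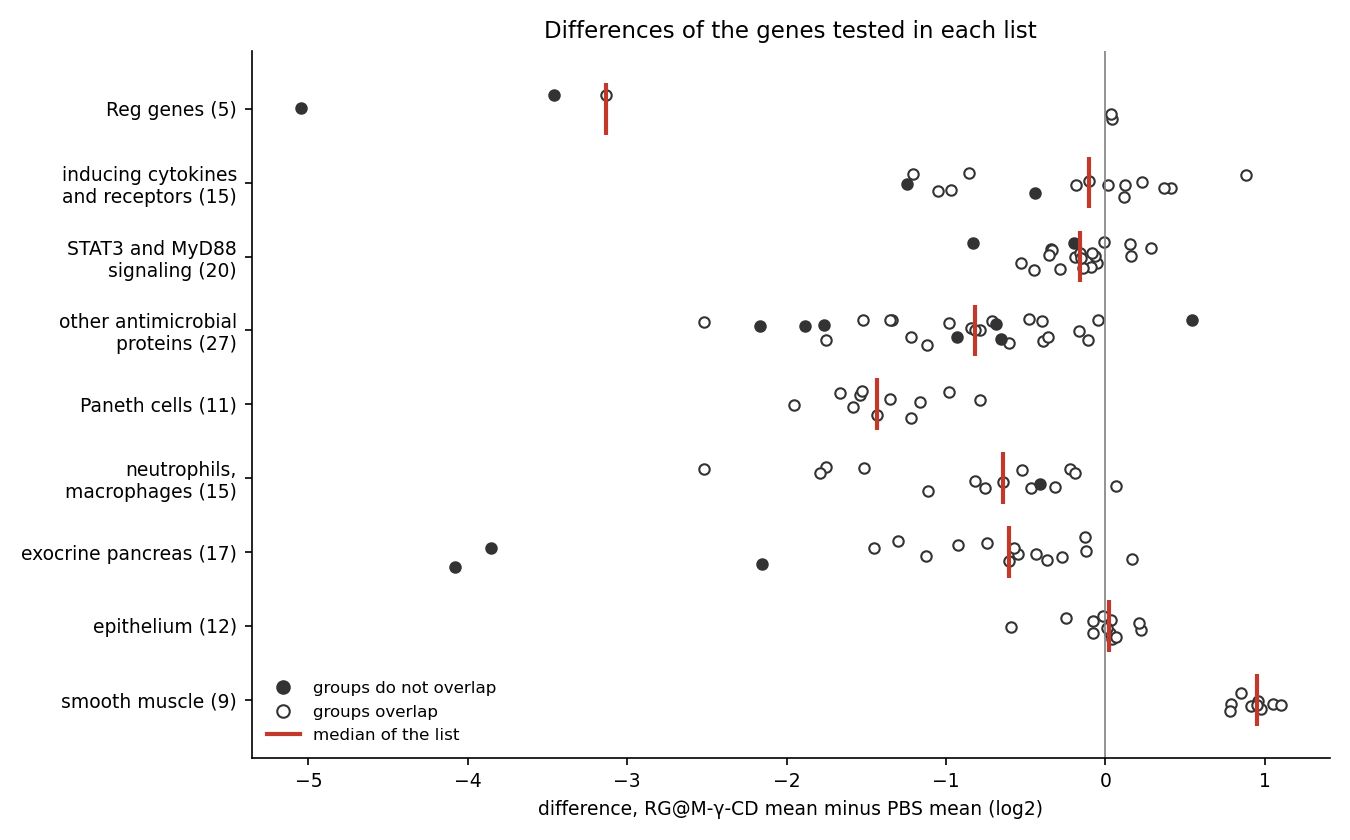
Log2 difference between the group means (x axis, RG@M-γ-CD minus PBS) of each gene tested in 9 lists, with the number tested in brackets, filled points for genes whose groups do not overlap and a red line at the list's median. The Reg genes fall apart into Reg3b, Reg3g and Reg1 on the left and Reg3d and Reg4 at 0. Reg1 entered the test through the control arrays alone, and its groups overlap. The antimicrobial list has a median of -0.82, the Paneth cell list -1.43 and the smooth muscle list 0.95.

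Markers of several cell types moved with the arrays. Paneth cells of the small intestine make Reg3g and defensins, and all 11 Paneth markers tested were negative, with a median of -1.43, from Defa25 at -1.95 to Lyz1 at -0.79. Their groups overlapped for all 11, where 2.19% of all genes were lower and 2.38% higher without overlap. Defa25 was well above background on 2 of 3 treated arrays, so it entered the test through the control arrays alone. Lyz1, Ang4, Itln1 and Pla2g2a are also in the antimicrobial list. The mean level of the Paneth list was 5.81, 2.97 and 2.66 in RG@M-γ-CD replicates 1, 2 and 3 and 4.16, 5.64 and 5.78 in PBS replicates 1, 2 and 3. RG@M-γ-CD replicate 1 and PBS replicate 2 were each the highest array for 4 of the 11 markers, and PBS replicate 3 for 3. The list of neutrophils and macrophages, which shares S100a8, S100a9 and Lyz2 with the antimicrobial list, behaved alike. In it 14 of 15 genes were negative, with a median of -0.64, from S100a8 at -2.52 to Csf3r at 0.06. Its mean level was highest in RG@M-γ-CD replicate 1, at 1.91, and lay at -0.07 and 0.31 in replicates 2 and 3, against 1.27 to 1.74 in the controls. Smooth muscle markers ran the other way, with 9 of 9 positive, a median of 0.95 and differences from 0.78 (Cnn1) to 1.1 (Synpo2). Their mean level was 4.64 and 4.84 in RG@M-γ-CD replicates 2 and 3, 1.91 in replicate 1, and 2.67 to 3.02 in the controls. The 12 epithelial markers had a median of 0.02, from Cldn4 at -0.59 to Cdx1 at 0.22. The part of the other cell types in the Reg3b and Reg3g differences was not tested.

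Genes whose levels followed a Reg gene most closely were taken among 1823 genes tested with a range of at least 2 on the log2 scale, by Pearson r over the 6 arrays. For Reg3b they were the amino acid transporter Slc38a4 (r = 0.978), the platelet chemokine Ppbp (0.966), the protocadherin Pcdhb4 (0.933), Nexmif (0.927) and the collagenase Mmp13 (0.920). For Reg3g they were an unnamed transcript of chromosome 12 (0.957), Slc38a4 (0.930), Nexmif (0.912), Prr9 (0.899) and the TNF receptor family member Eda2r (0.885), so 2 of 5 were shared. Among these, the chromosome 12 transcript was well above background on 3 of the 6 arrays, Nexmif on 4, and Ppbp and Prr9 on 5. Their r values thus rest in part on spots at background. For Reg1 the closest 3 were the pancreatic proteases Prss2 (0.871), Ctrc (0.852) and Ctrb1 (0.845), followed by Gm14625 (0.814) and an unnamed transcript of chromosome 6 (0.803). Reg1 was well above background on 4 of the 6 arrays and Prss2 and Ctrc on 3, so these values rest in part on spots at background and on the high levels of PBS replicate 2. For Reg4 they were AK081140 (0.906), Serpind1 (0.832), the secretoglobin Scgb3a1 (0.825), the peptide transporter Slc15a2 (0.825) and Ceacam13 (0.824). For Reg3d they were unnamed transcripts of chromosomes 16 (0.930) and 17 (0.869), then Fam181b (0.826), BC049265 (0.820) and Arsb (0.818). The arrays share a group difference and a slide, and no p is given.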

How the data were processed

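Arrays of 3 RG@M-γ-CD and 3 PBS mice, grouped by the sample labels, were analysed. The authors deposited, for each array, spot intensities from Feature Extraction 10.7.1.1, background-corrected and unscaled across arrays. The authors also deposited log2 values of 56745 probes, whose columns share a median of 4.83 and a common distribution, and which were read as quantile normalized. Their centring is not given in the sources used here. The software was R 4.3.3 with limma 3.58.1. Control and outlier spots were dropped, and each array's 75th percentile over gene probes was subtracted after log2. Of 56605 gene probes, 58.3% were renamed through their accession and a reference table of GRCm38.p6. A probe entered the fit if a group had it well above background on each of its 3 arrays, and the brightest such probe stood for a gene, which left 19087 genes. limma (lmFit, eBayes) with Benjamini-Hochberg adjustment at 0.05 was used. At-least folds set dim values to the lowest level well above background on their array. The fit was tested on simulated data. Promoter identity came from global alignment in Biopython 1.88.

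The 7 members and all 21 gene lists were chosen with earlier results of these data known. The result of 1 list is not reported here. Named genes are the members, each list's extremes, genes without overlap in the 3 pathway lists, and the 5 genes most like each member; individual pancreatic enzymes, Paneth and other markers beyond these were named after their values were seen. Alternatives were quantile normalization, normexp with an offset of 50, the authors' table, other filters on dim probes, averaged probes per gene, retained outlier spots, a block for the replicate number or for the row on the slide, row 1 alone, the methods' test, and leaving out or exchanging arrays. The percentage of probes well above background (49.6% to 55.2%) is the depth of an array, and the 3 arrays per group limit the precision. Protein sequences and RT-PCR were not analysed here.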

Additional observations from a re-analysis of the deposited data

How the results depend on the processing

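Reg3b and Reg3g kept their direction, and stayed on the same side of the adjusted threshold, under all 19 alternatives with a test, and Reg1 under all 18 that kept it. Leaving out arrays could not have reversed Reg3b or Reg3g, whose groups do not overlap. Reg1 entered the main test through the control arrays alone. Its steady direction rests in part on that filter and on 2 treated values at background. The median over the Reg genes tested, -3.13 with all 5, is the value of Reg1. It was -1.19 with normexp, where it is Reg1 again, -1.78 with no filter on dim probes, where it falls on Reg2, which was at background on 5 arrays, -1.71 with a filter on all 6 arrays or without Reg1 (chosen after seeing the data), and -0.87 with RG@M-γ-CD replicate 1 and PBS replicate 1 exchanged. Leaving out each array in turn gave -3.99 to -1.89, the latter without PBS replicate 2. Reg3d turned to -0.059 with normexp, -0.19 with the exchange and -0.12 without both of those arrays, and ranged from -0.061 to 0.19 leaving out each array. Reg4 turned to -0.32 and -0.21 under the last 2 settings and ranged from -0.22 to 0.34.

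The number of genes past the adjusted threshold, 0, stayed 0 except without RG@M-γ-CD replicate 1, where it was 206, none of them a Reg gene (range 0 to 206). The number of genes whose groups do not overlap was 872. It was 1412 with no filter, 7207 in row 1 alone, 9646 without both arrays, 4914 with the exchange, and 1442 to 5046 leaving out 1 array, where fewer arrays make overlap rarer. With the replicate number as a replicate block, Reg3b stayed at -5.05 and Reg3g at -3.46, 0 genes passed the adjusted threshold, and 145 passed the methods' thresholds, against 33 higher and 74 lower without the block. Deviations of same-numbered arrays correlated at -0.25, -0.23 and 0.14, within the range of -0.33 to 0.41 of differently numbered arrays. These values cannot decide whether the numbers pair the mice, which the sample labels do not state. Of the 5 Reg genes tested, Reg3b and Reg3g were at the methods' thresholds. In row 1 alone, or with the row as a block, Reg3g alone was, and Reg1 joined both with no filter, without RG@M-γ-CD replicate 3, without PBS replicate 3 and relative to the epithelium list. The number of genes called at these thresholds ran from 45 with the methods' own test to 1140 without RG@M-γ-CD replicate 1 and 1253 without both arrays. Dim signal limits Reg1, Reg2, Reg3a, both Reg3d probes and Il22. The causes of these changes were not tested.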

Other observations

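Other marker lists, chosen with earlier results of these data known, held 0 genes past the adjusted threshold and are given by their medians. Markers of goblet and deep crypt secretory cells were tested for 15 of 15 genes, with 13 negative, a median of -0.25 and a range from Retnlb (-1.34) to Sytl2 (0.14). Enteroendocrine markers were positive for 12 of 13, with a median of 0.20, from Cck (-0.53) to Scg2 (0.92). Markers of crypt stem cells and tumor epithelium were negative for 13 of 15, with a median of -0.22, from Lgr5 (-0.70) to Lrig1 (0.29). Colonocyte markers were negative for 10 of 16 (median -0.15, from Car4 at -0.80 to Car2 at 0.56) and small intestine enterocyte markers for 4 of 9 (median 0.05, from Onecut2 at -0.63 to Apob at 0.41).

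The list of B and plasma cells had a median of -0.27, from Cd79b (-0.63) to Jchain (0.49). Among tissues that could lie beside the colon, medians were -0.21 for stratified epithelium of the anal canal (from Sprr1a at -1.25 to Krtdap at 0.45), -0.16 for stomach (from Tff1 at -0.68 to Atp4a at 0.15, with 3 genes tested), 0.22 for islet (from Iapp at -0.69 to Sst at 0.84, with 5 tested), 0.03 for liver (from Serpina1a at -0.55 to Cyp2e1 at 1.39) and 0.34 for fat (from Lep at -0.07 to Cidec at 0.96).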
